A study of Homo sapiens with 3 samples.

Results

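Lysosomal transcripts were examined in T47D cells, an established human breast cancer line with a luminal, hormone receptor positive character. The set is a list of 51 genes for lysosomal proteases, glycosidases, sulfatases, lipid-handling proteins, phosphatases, membrane proteins, the MiT transcription factors and progranulin. Each probe set annotated with exactly 1 symbol from the list was used, and genes with several were summarised by the median. Of the 51 genes, 49 were measured, by 124 of 54675 probe sets, out of 19775 genes in all. GLB1 and ACP5 had no such probe set; a probe set shared by GLB1 and TMPPE, which cannot be given to either, differed by -0.11 with estradiol and 0.094 with tamoxifen, and ACP5 was not analysed here. The cells of every group were kept for 4 h in medium with 10% charcoal-stripped serum and then treated for 3 h. One group received vehicle, which was 0.1% ethanol. Another received 1 uM estradiol, the main natural estrogen, and the last 1 uM tamoxifen, a selective estrogen receptor modulator. Each group was 1 Affymetrix array, so no difference has a replicate check, no p-value or SD can be given, and the number of arrays limits the precision.

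Lysosomes degrade proteins, glycans and lipids with acid hydrolases. Most of these enzymes are tagged with mannose 6-phosphate, carried by its receptors and matured in the acid lumen that the proton pump (V-ATPase) maintains. TFEB, TFE3 and MITF are related factors of the MiT family that bind the CLEAR element, a palindrome built around the E-box CACGTG, in the promoters of many lysosomal genes, and mTORC1 on the lysosomal surface holds TFEB and TFE3 in the cytoplasm while nutrients are ample. In breast cancer cells cathepsin D is known as a protein whose gene estrogen induces.

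The deposited log2 expression values lie around 0 in both directions for each probe set, so a centre had been subtracted, signal levels were not kept and the luminal character of the cells could not be checked from levels. Values given for an array are these centred values, and for a gene with several probe sets their median. Differences between arrays are log2 differences relative to the median of all genes. As deposited, that median was -0.0057 between estradiol and vehicle, 0.10 between tamoxifen and vehicle, and 0.11 between tamoxifen and estradiol. Control probe sets differed between the arrays, some setting the vehicle array apart and others the tamoxifen array. Against vehicle, as deposited, 18S ribosomal RNA (3 probe sets) had median differences of 1.86 with estradiol and 1.96 with tamoxifen, and polyadenylated spikes (24 probe sets) of 0.70 and 0.49. For ACTB, the 3' signal less the 5' signal differed from vehicle by -0.78 and -0.77. Hybridisation spikes of the older design (9 probe sets) set the tamoxifen array apart, with median differences of -3.23 from vehicle and -3.16 from estradiol, against -0.076 between estradiol and vehicle. The newer probe sets for the same spikes (9) differed by 0.22, 0.49 and -0.20 in the same order. These control values touch every difference given below, and their part in those differences was not tested.

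Most of the listed genes, but not all, were lower on both treated arrays. On the estradiol array 32 of 49 lay below the all-gene median and 17 above, with a median of -0.37, against an interquartile range of -0.24 to 0.21 for all genes. At least 2-fold lower values were found for 5 members (10.2%), against 1.68% of all genes, and at least 2-fold higher values for 0 members, against 1.62% of all genes. On the tamoxifen array 33 lay below and 16 above, with a median of -0.37. At least 2-fold lower values were found there for 4 members (8.16%), against 1.79% of all genes, and higher ones for 0 members, against 1.65%. At 1.5-fold, 19 members were lower and 3 higher with estradiol, against 8.74% and 6.42% of all genes, and 15 were lower and 1 higher with tamoxifen, against 8.87% and 6.35%. The comparisons share the vehicle array, so their values are given side by side and are not independent of each other. The members were chosen with earlier results of these data known, so their shares beside those of all genes describe the list and are no test. A list of 21 further measured lysosomal genes, given below, had medians of 0.12 with estradiol and 0.14 with tamoxifen. In the values as deposited 2 members, TPP1 and SGSH, were no longer past 2-fold with tamoxifen, at -0.97 and -0.92.

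**Figure D1:**
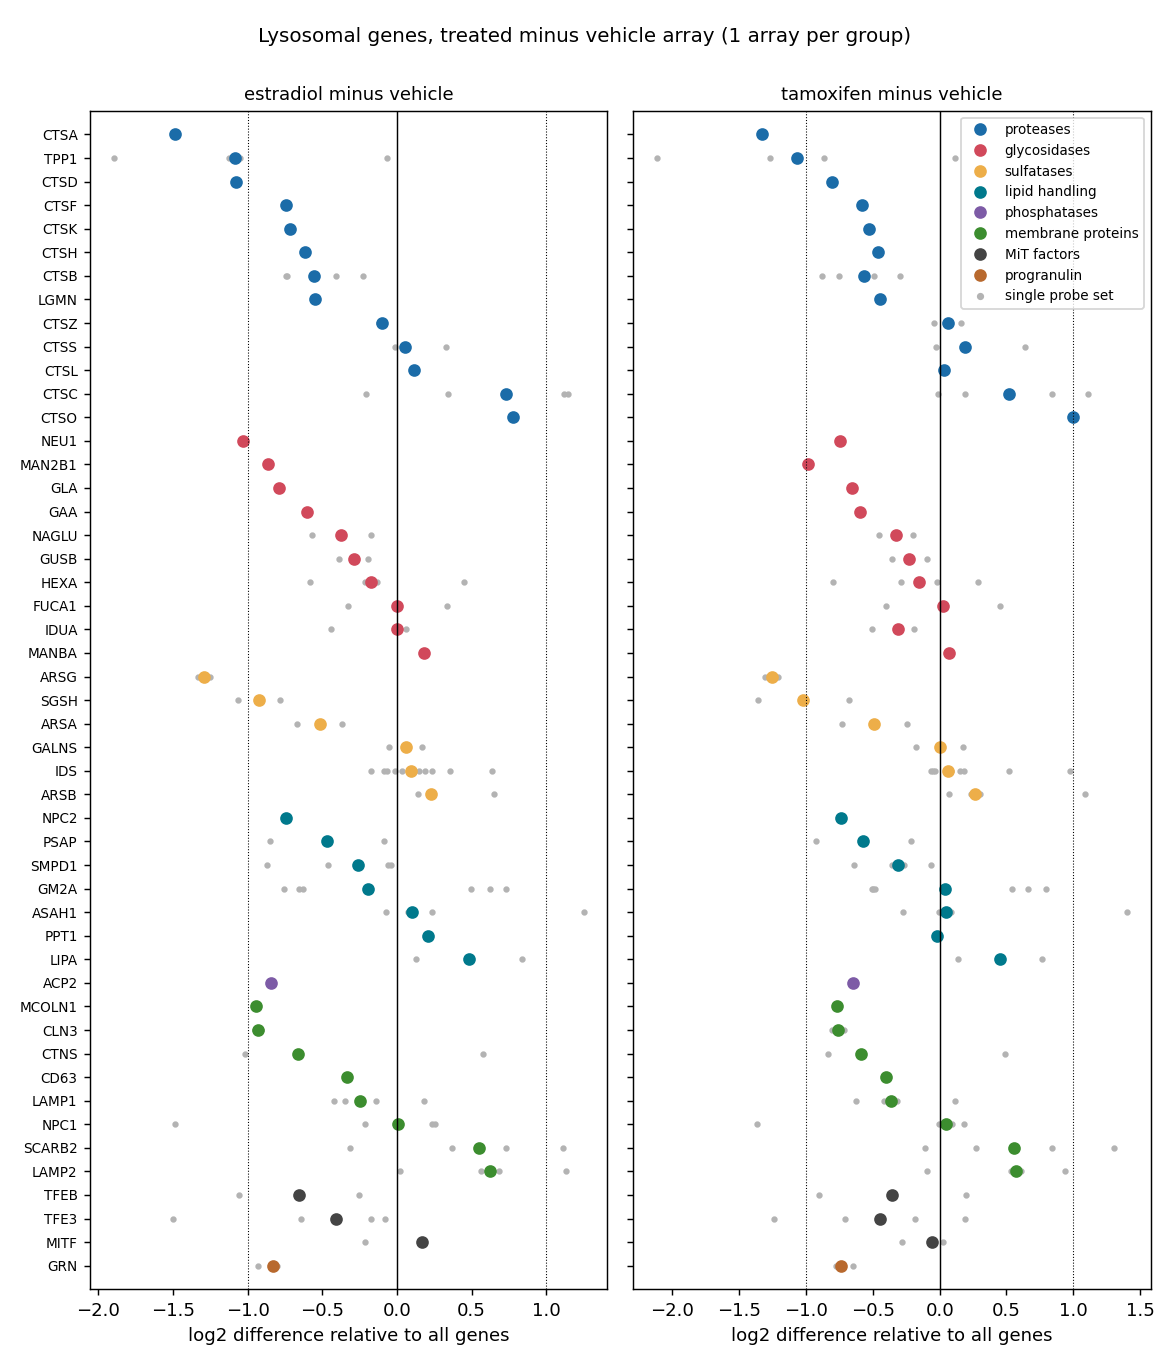
Log2 difference from the vehicle array, relative to all genes, for 49 lysosomal genes grouped by role (left, estradiol; right, tamoxifen). Large points are gene medians over probe sets, grey points single probe sets and dotted lines 2-fold. CTSA is the lowest gene in both panels, at -1.49 and -1.33, and CTSO the highest, at 0.78 and 0.996.

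Among the 13 proteases the median was -0.55 with estradiol and -0.46 with tamoxifen. CTSA (cathepsin A, a serine carboxypeptidase that also protects neuraminidase in a complex) had 1 probe set, with centred values of 0.041 on the vehicle, -1.45 on the estradiol and -1.18 on the tamoxifen array. Both treated arrays lay far below vehicle and close to each other. The gene was 2.81-fold lower with estradiol and 2.51-fold lower with tamoxifen, which ranked it 46 and 89 from the bottom of 19775 genes. Its promoter is shown because CTSA was the lowest member and because it carries the CLEAR core, the 8 bases GTCACGTG or their reverse complement, at 2 places, whose E-boxes start at positions -42 and -25 from the transcription start. Capitals mark the 8-base matches in the 250 bases upstream of the RefSeq start (GRCh38.p14).

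CTSA promoter, chr20:45891085-45891334, + strand: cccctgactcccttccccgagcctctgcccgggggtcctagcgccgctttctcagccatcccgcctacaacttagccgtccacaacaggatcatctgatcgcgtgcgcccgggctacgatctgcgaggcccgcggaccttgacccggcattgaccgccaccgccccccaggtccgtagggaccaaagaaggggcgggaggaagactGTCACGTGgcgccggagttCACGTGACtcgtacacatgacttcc

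TPP1 (tripeptidyl peptidase 1, which trims tripeptides from unfolded proteins) had a median over 4 probe sets of 0.30, -0.80 and -0.67 on the vehicle, estradiol and tamoxifen arrays. It was 2.13-fold lower with estradiol and 2.10-fold lower with tamoxifen. Its probe sets did not read alike. In 3 of them the estradiol difference lay between -1.90 and -1.05, whereas the other read -0.07 and, with tamoxifen, 0.12. The TPP1 promoter, shown as that of the other protease past 2-fold with both agents, holds no E-box CACGTG and carries GTCACATG, which differs from the CLEAR core in 1 base. That variant, in capitals below, was searched after this promoter had been read, and it occurs in 5 of the 36 members with a promoter (13.9%), in 1.65% of measured genes and in 1.27% of the 35116 promoters of this length in the table. The 5 members with it (CD63, GRN, IDUA, PPT1 and TPP1) had a median of -0.34 with estradiol and -0.40 with tamoxifen, against -0.41 and -0.37 for the members without it. TPP1, from which the variant was taken, is counted among the 5, so their share is raised by that choice and is no test.

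TPP1 promoter, chr11:6619423-6619672, - strand: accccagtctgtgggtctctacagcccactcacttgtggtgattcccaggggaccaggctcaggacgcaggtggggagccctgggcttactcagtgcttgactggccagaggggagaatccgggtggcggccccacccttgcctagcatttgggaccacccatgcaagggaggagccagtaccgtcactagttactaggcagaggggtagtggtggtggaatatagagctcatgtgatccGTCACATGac

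CTSD (cathepsin D, an aspartic protease) had 1 probe set, at 0.14 on the vehicle, -0.94 on the estradiol and -0.56 on the tamoxifen array. It was 2.11-fold lower with estradiol (-1.08) and 1.75-fold lower with tamoxifen (-0.81). The estradiol array was thus the lowest of the 3 for this gene known as estrogen-induced. The cysteine proteases CTSF, CTSK, CTSH and CTSB, with values of -0.75, -0.72, -0.62 and -0.55 for estradiol and of -0.58, -0.53, -0.46 and -0.57 for tamoxifen, differed by less than 2-fold. All 5 probe sets of CTSB were below 0 in both comparisons. LGMN (legumain, an asparaginyl endopeptidase that activates cathepsins) read -0.55 and -0.45.

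Not all proteases were lower. CTSO, a cysteine protease with 1 probe set, read -0.15 on the vehicle, 0.62 on the estradiol and 0.95 on the tamoxifen array, with differences of 0.78 and 0.996. As deposited, the tamoxifen difference was 1.10 and thus past 2-fold. CTSC (dipeptidyl peptidase 1, which activates serine proteases of immune cells) was higher as a median, at 0.73 and 0.52, but its 4 probe sets ranged from -0.21 to 1.15 with estradiol and from -0.0093 to 1.11 with tamoxifen. The medians of CTSL, CTSS and CTSZ, cysteine cathepsins, stayed between -0.10 and 0.19 in both comparisons. In CTSS 1 of 3 probe sets read 0.33 with estradiol and 0.64 with tamoxifen.

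Glycosidases, which remove sugars from glycoproteins and glycolipids, had medians of -0.33 with estradiol and -0.32 with tamoxifen over 10 measured genes. NEU1 (neuraminidase 1, which removes sialic acid and forms the complex with cathepsin A) had 1 probe set, at 0.29 on the vehicle, -0.75 on the estradiol and -0.35 on the tamoxifen array. It was 2.05-fold lower with estradiol and 1.68-fold lower with tamoxifen. MAN2B1 (lysosomal alpha-mannosidase) read -0.031, -0.90 and -0.92 on the arrays in the same order, with differences of -0.87 and -0.99. The treated arrays were nearly equal in this gene.

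GLA (alpha-galactosidase A) was at -0.79 with estradiol and -0.66 with tamoxifen, and GAA (the acid glucosidase that degrades glycogen) at -0.60 in both comparisons. NAGLU and GUSB, enzymes of heparan sulfate and glucuronide breakdown, were at -0.37 and -0.29 with estradiol. MANBA (beta-mannosidase), the highest of the group, was at 0.18 with estradiol and 0.067 with tamoxifen, and its 1 probe set read -0.048, 0.13 and 0.12 on the vehicle, estradiol and tamoxifen arrays. HEXA (the alpha subunit of beta-hexosaminidase) was at -0.17, over 4 probe sets from -0.58 to 0.45, so its direction differed between probe sets. FUCA1 (alpha-fucosidase) and IDUA (alpha-iduronidase) were at 0.0010 and 0.0024 with estradiol, and at 0.027 and -0.31 with tamoxifen. The 2 probe sets of FUCA1 were opposed, at -0.33 and 0.33 with estradiol and -0.40 and 0.45 with tamoxifen. Those of IDUA ranged from -0.44 to 0.062 with estradiol.

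The 6 sulfatases, which remove sulfate groups from glycosaminoglycans and sulfolipids, were split evenly, with 3 below and 3 above the all-gene median in each comparison. ARSG (arylsulfatase G, which acts on heparan sulfate) was the lowest, with a median over 2 probe sets of 0.18 on the vehicle, -1.12 on the estradiol and -0.97 on the tamoxifen array. It was 2.45-fold lower with estradiol and 2.39-fold lower with tamoxifen, and both probe sets were past 2-fold in both comparisons, from -1.34 to -1.25 and from -1.30 to -1.21. ARSG was the only member with every one of at least 2 probe sets past 2-fold in either comparison with vehicle. Its promoter is shown because ARSG, CTSA and TPP1 were the members past 2-fold with both agents, and it holds neither CACGTG nor GTCACATG.

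ARSG promoter, chr17:68258920-68259169, + strand: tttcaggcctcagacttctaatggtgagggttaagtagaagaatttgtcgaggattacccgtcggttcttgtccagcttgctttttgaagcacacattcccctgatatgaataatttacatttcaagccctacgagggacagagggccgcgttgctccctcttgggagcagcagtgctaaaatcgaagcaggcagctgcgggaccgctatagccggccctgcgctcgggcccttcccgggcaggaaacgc

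SGSH (sulfamidase, also of heparan sulfate breakdown) was at 0.10 on the vehicle, -0.83 on the estradiol and -0.81 on the tamoxifen array, with differences of -0.93 and -1.02. Its 2 probe sets read -1.07 and -0.78 with estradiol and -1.36 and -0.68 with tamoxifen, so only the first was past 2-fold. ARSA (arylsulfatase A, for sulfatides) was at -0.52 and -0.49. ARSB (arylsulfatase B, for dermatan sulfate) read -0.20, 0.094 and 0.26 on the vehicle, estradiol and tamoxifen arrays and was the highest sulfatase, at 0.23 and 0.27. IDS (iduronate-2-sulfatase) and GALNS (for keratan sulfate) were near 0, at 0.091 and 0.059 with estradiol and 0.066 and 0.0013 with tamoxifen. The 10 probe sets of IDS ranged from -0.17 to 0.64 with estradiol.

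Proteins of lipid breakdown and export were spread around 0, with medians of -0.19 and -0.019 for 7 genes. NPC2 (the soluble carrier that hands cholesterol to NPC1) was the lowest, with 1 probe set at 0.075 on the vehicle, -0.68 on the estradiol and -0.56 on the tamoxifen array and a difference of -0.74 in both comparisons. PSAP (prosaposin, the precursor of the sphingolipid activators) was at -0.47 and -0.57, but 1 of its 2 probe sets read -0.85 and the other -0.08 with estradiol. LIPA (lysosomal acid lipase) was the highest, at -0.082 on the vehicle, 0.39 on the estradiol and 0.47 on the tamoxifen array, with differences of 0.48 and 0.45. SMPD1 (acid sphingomyelinase) was at -0.26 and -0.31, and PPT1 (palmitoyl-protein thioesterase 1) at 0.21 and -0.019. The 4 probe sets of SMPD1 ranged from -0.87 to -0.039 with estradiol and from -0.64 to -0.062 with tamoxifen.

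GM2A (the GM2 activator protein) and ASAH1 (acid ceramidase) had small medians that hid discordant probe sets. In GM2A 4 probe sets lay between -0.76 and -0.19 with estradiol and the other 3 between 0.49 and 0.73, for a median of -0.19. In ASAH1 1 probe set read 1.25 with estradiol and 1.40 with tamoxifen, while the other 4 lay between -0.07 and 0.23 and between -0.28 and 0.08. ACP2 (lysosomal acid phosphatase), the measured phosphatase, was at 0.0011, -0.85 and -0.54 on the vehicle, estradiol and tamoxifen arrays, with differences of -0.84 and -0.65. GRN (progranulin, a secreted and lysosomal glycoprotein) was at 0.17, -0.67 and -0.42, with differences of -0.83 and -0.74 and all 3 probe sets below 0 in both comparisons.

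The 8 membrane proteins had medians of -0.29 with estradiol and -0.38 with tamoxifen and differed in sign among themselves. MCOLN1 (the calcium channel TRPML1) was the lowest, with 1 probe set at 0.11 on the vehicle, -0.83 on the estradiol and -0.55 on the tamoxifen array and differences of -0.94 and -0.77. CLN3 (battenin) followed, with differences of -0.93 and -0.76, and its 2 probe sets were close to each other. CTNS (the cystine exporter) was at -0.66 and -0.59, although 1 of its 3 probe sets read 0.58 and 0.49. The abundant glycoproteins LAMP1 and CD63 were at -0.24 and -0.34 with estradiol and at -0.37 and -0.40 with tamoxifen.

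LAMP2, which shields the membrane and serves autophagy, was instead the highest of the group, with a median over 4 probe sets of -0.027 on the vehicle, 0.54 on the estradiol and 0.60 on the tamoxifen array. Its differences were 0.62 and 0.57, with probe sets from 0.02 to 1.13 for estradiol. SCARB2 (LIMP-2, the sorting receptor of glucocerebrosidase) had differences of 0.55 and 0.56, with probe sets from -0.32 to 1.11 for estradiol. The medians of LAMP1 and LAMP2, near relatives, thus lay on opposite sides of the all-gene median in both comparisons. Their probe sets were less uniform. Those of LAMP1 ranged from -0.42 to 0.18 with estradiol and from -0.63 to 0.12 with tamoxifen. With tamoxifen, those of LAMP2 ranged from -0.09 to 0.94. NPC1 (the membrane exporter of cholesterol) was at 0.0090 and 0.044, while 1 of its 4 probe sets read -1.49 and -1.37 and the other 3 lay between -0.22 and 0.25 with estradiol.

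**Figure D2:**
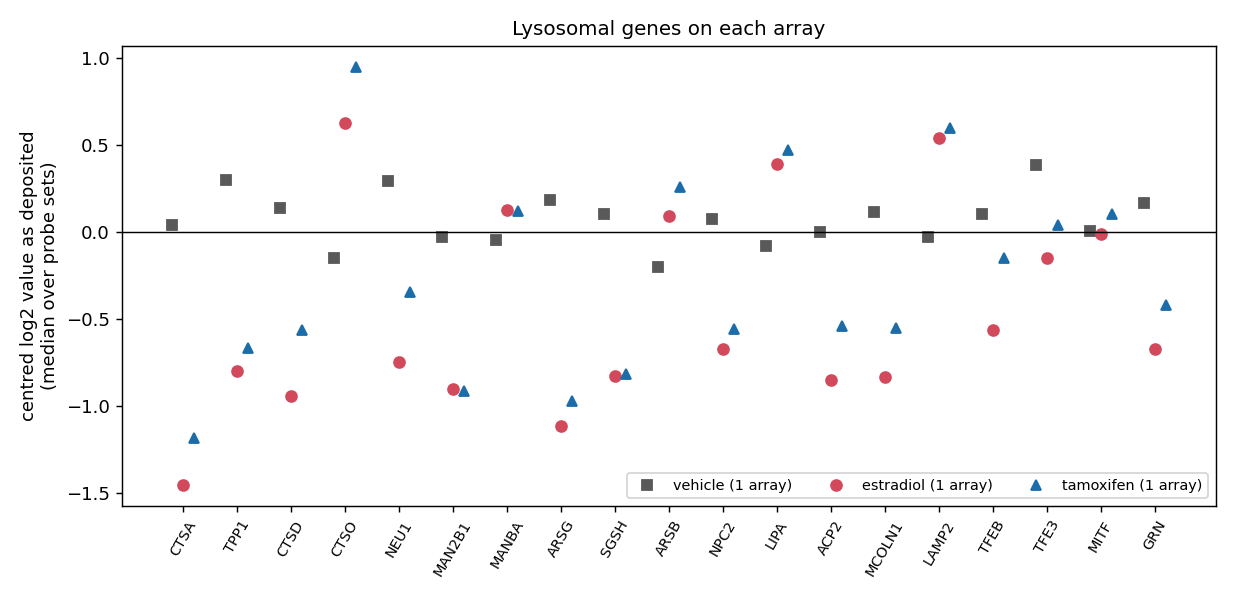
Centred log2 value as deposited (median over probe sets) on each of the 3 arrays for 19 lysosomal genes: those past 2-fold in any comparison, the MiT factors, and the highest and lowest of each role against vehicle. The estradiol and tamoxifen symbols lie together below vehicle for CTSA (-1.45 and -1.18 against 0.041) and together above it for LAMP2 (0.54 and 0.60 against -0.027).

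The MiT factors differed by less than 2-fold. TFEB read 0.10 on the vehicle, -0.56 on the estradiol and -0.15 on the tamoxifen array, with differences of -0.66 and -0.35. Its 2 probe sets differed, with 1 at -1.06 and -0.91 and the other at -0.26 and 0.20 for estradiol and tamoxifen. TFE3 read 0.39, -0.15 and 0.043, with differences of -0.41 and -0.45 and with probe sets from -1.502 to -0.08 with estradiol and from -1.24 to 0.19 with tamoxifen. MITF read 0.0070, -0.0097 and 0.10, with differences of 0.17 and -0.060, and the latter was 0.043 in the values as deposited. Its 3 probe sets ranged from -0.22 to 0.17 with estradiol and from -0.28 to 0.025 with tamoxifen. Array values and differences are separate medians over these probe sets, so their directions need not match. The activity of these factors is set largely by their place in the cell, which transcripts do not show.

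Probe sets of a gene were the available gauge of agreement within the arrays. They share the same RNA and arrays, so their scatter does not measure error between arrays. Of 31 members with at least 2 probe sets, 14 had all of them below 0, 3 all above 0 and 14 on both sides with estradiol, and 11, 2 and 18 with tamoxifen. Over single probe sets, 78 of 124 (62.9%) lay below 0 in each comparison. These counts were not made over all genes or all probe sets, so they describe the members only. Probe sets of a gene scattered around its median with a spread (scaled median absolute deviation, all genes) of 0.24 with estradiol and 0.27 with tamoxifen. In the 31 members with at least 2 probe sets the median was -0.21 with estradiol and -0.25 with tamoxifen, with 2 and 3 genes at least 2-fold lower. The share past 2-fold among all genes with at least 2 probe sets was not calculated. CTSA, CTSD and NEU1 are not among the 31 members, since each rests on 1 probe set.

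The treated arrays differed little from each other in these genes. For tamoxifen minus estradiol the member median was 0.031, with an interquartile range of -0.072 to 0.15 against -0.13 to 0.14 for all genes. All 49 lay within 0.3 of 0, and 43 (87.8%) within 0.2, against 67.3% of all genes. At 2-fold 0 members were lower and 0 higher on the tamoxifen array, against 0.202% and 0.0253% of all genes, and at 1.5-fold again 0 and 0, against 1.22% and 0.885%. The highest were TFEB (0.30), NEU1 (0.28) and CTSD (0.27), each less low with tamoxifen than with estradiol, and the lowest were IDUA (-0.26) and PPT1 (-0.23). Relative to all genes 32 members lay above 0 and 17 below, whereas 41 lay above and 8 below in the values as deposited, so the count of directions depends on the centring. This comparison does not involve the vehicle array. The control values in it were 0.043 for 18S ribosomal RNA and 0.0058 for the 3' minus 5' signal of ACTB. The polyadenylated spikes had a median of -0.15 but ranged from -1.92 to -0.023, so all were lower on the tamoxifen array. The older hybridisation spikes were at -3.16 (from -4.23 to -1.86) and the newer ones at 0.49. The part of these control values in this comparison was not tested.

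The motif bound by MiT factors was searched in the RefSeq promoters (250 bases before to 50 after each start, GRCh38.p14, both strands), which the table held for 36 of the 49 measured genes. The E-box CACGTG was found in 11 of the 36 (30.6%), against 10.9% of the 15384 measured genes with a promoter and 7.26% of the 35116 promoters. GTCACGTG, which contains it, was found in 8 (22.2%) against 4.15% of these genes and 2.40% of promoters. TCACGTGA, which overlaps both, was found in 6 (16.7%) against 1.66% of genes and 0.980% of promoters. The full CLEAR palindrome, which extends this core on both sides, was found in 3 (8.33%), namely GAA, GALNS and MCOLN1, against 0.650% of genes and 0.353% of promoters. The palindromic estrogen response element had no match in these members and one in 0.0570% of promoters. Windows of 30 bases around 1 E-box of 7 members are given as examples of the matched sequence in its context, with the E-box in capitals. Genes and sites were chosen after the matches were seen, other sites of GAA, GALNS, LAMP1, CLN3 and MCOLN1 and those of ARSB, CD63, CTSA and CTSF are not among them, and likeness between sites cannot be read from this choice.

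MCOLN1, chr19:7522598-7522627, + strand: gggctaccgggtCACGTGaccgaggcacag
GAA, chr17:80101493-80101522, + strand: gggaggccgcgtCACGTGacccaccgcggc
GALNS, chr16:88857104-88857133, - strand: caggcaccgcgtCACGTGacccgccgctgg
LAMP1, chr13:113297199-113297228, + strand: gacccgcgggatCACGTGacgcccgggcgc
CLN3, chr16:28492087-28492116, - strand: aaaacctctgagCACGTGatgggggaacac
CTSD, chr11:1763957-1763986, - strand: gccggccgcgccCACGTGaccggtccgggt
NEU1, chr6:31862930-31862959, - strand: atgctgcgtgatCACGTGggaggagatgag

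The first 3 lines hold the full palindrome and their E-boxes start at positions -14, -76 and -174 from the transcription start. That of CTSD starts at -47 and that of NEU1 at -126. Of the 11 members with an E-box 9 lay below the all-gene median in each comparison with vehicle. These were CTSA, CTSD, NEU1, MCOLN1, CLN3, CTSF, GAA, CD63 and LAMP1. GALNS and ARSB, with values between 0.0013 and 0.27, lay above it. They were also the longest of the 11, at 43.2 kb and 209 kb. The others ran from 5.14 kb (CTSF) to 26.4 kb (LAMP1). The median of the 11 was -0.75 with estradiol and -0.60 with tamoxifen, whereas the other 25 had medians of -0.26 and -0.31. Over all measured genes the E-box went with medians of -0.024 and -0.045, against 0.0033 and 0.0050 without it. GALNS, with the full palindrome, was near 0, and TPP1 and ARSG, without an E-box, were past 2-fold lower. A match is a description of letters in this window and no evidence of binding, and the difference between the groups of members was not tested. Gene length, which also went with the differences (below), was not taken into account in this split.

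**Figure D3:**
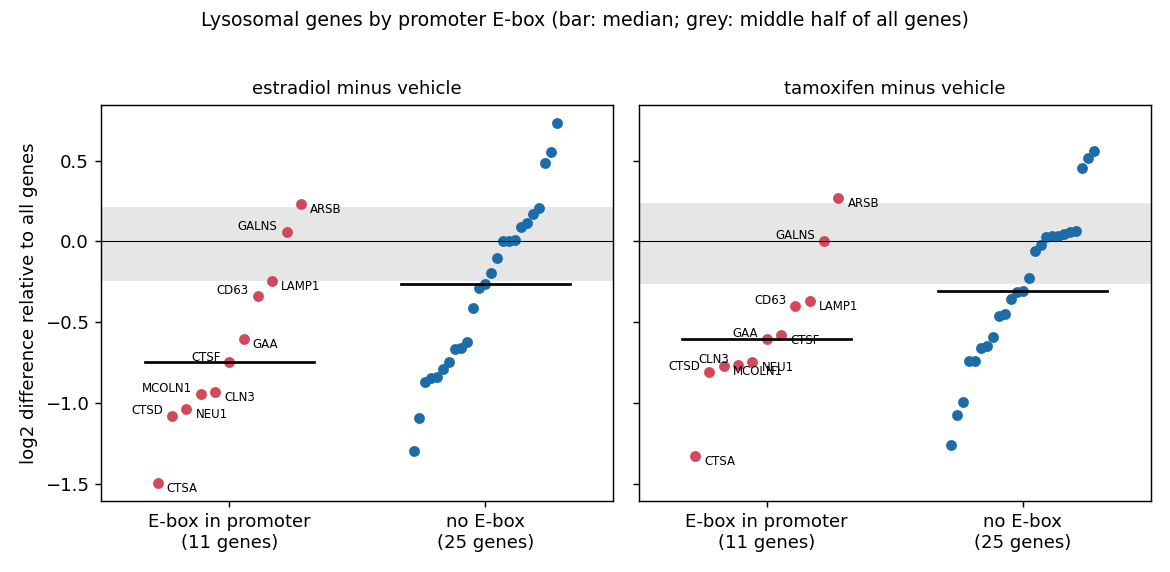
Log2 difference from vehicle, relative to all genes, of 36 lysosomal genes with a promoter sequence, split by an E-box (CACGTG) in the promoter (left, estradiol; right, tamoxifen). Bars are medians (-0.75 and -0.26 for estradiol, -0.60 and -0.31 for tamoxifen) and the grey band is the interquartile range of all genes.

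Gene length went with the differences from vehicle. The choice of members did not use length but was made with earlier results of these data known. The relation among members therefore describes the list and is no test. The 26 members shorter than the all-gene median of 24.7 kb had medians of -0.67 with estradiol and -0.55 with tamoxifen, whereas the 23 longer ones had medians of 0.059 and 0.0013. Across the 49 genes, which are not independent replicates and share the same arrays, Spearman's rho between length and difference was 0.54 with estradiol and 0.52 with tamoxifen (Pearson's r with log length 0.47 and 0.43), and over 19734 genes it was 0.21 and 0.20. CTSA (7.49 kb), TPP1 (6.66 kb), NEU1 (5.16 kb) and CTSD (11.2 kb) were short, and LAMP2 (43.2 kb), SCARB2 (75.8 kb) and LIPA (201 kb) long. Promoter GC content, over the 36 members with a promoter, had a rho of 0.088 with estradiol and 0.11 with tamoxifen. ARSG (193 kb) was a long gene with a low value, and CTSL (5.35 kb) a short one near 0. For tamoxifen minus estradiol rho was -0.29 over the members and -0.0077 over all genes. When the median of genes in the same length quintile was subtracted, an alternative added after the data were seen, in place of that of all genes, the member medians were -0.30 with estradiol and -0.35 with tamoxifen, and 4 and 2 members were at least 2-fold lower. The share of all genes past 2-fold under this centring was not calculated. NEU1 (-0.96) was no longer past 2-fold with estradiol, nor were TPP1 (-0.99) and SGSH (-0.999) with tamoxifen. The 3' minus 5' signals given above, a measure of RNA quality and labelling, also differed between vehicle and treated arrays, and their part in the relation with length was not tested.

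**Figure D4:**
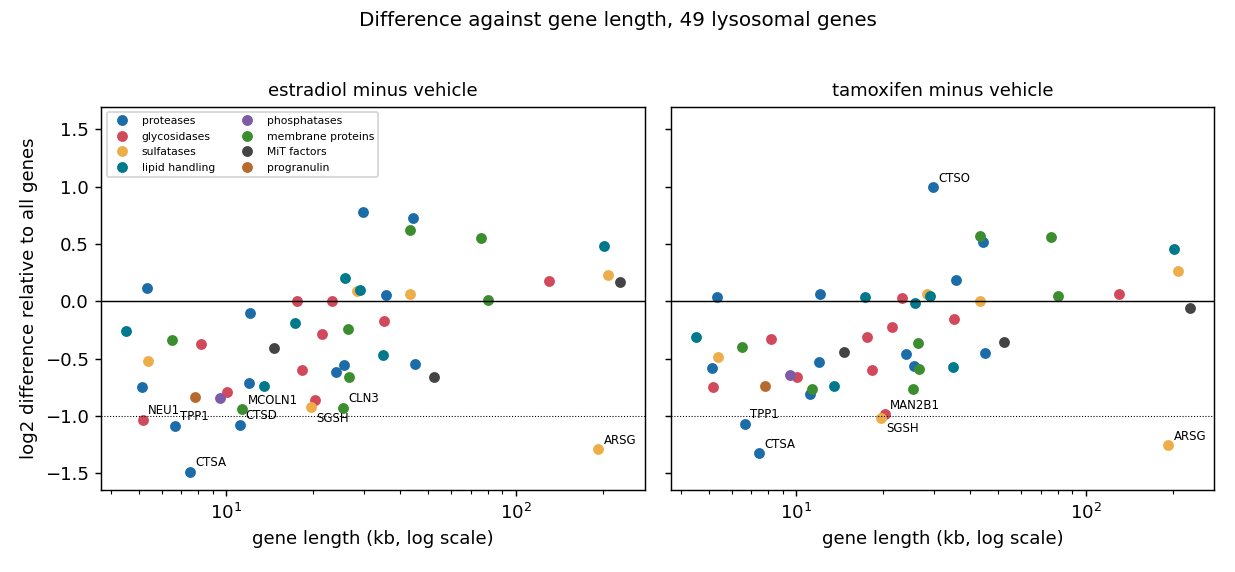
Log2 difference from vehicle, relative to all genes, against gene length in kb (log scale) for 49 lysosomal genes coloured by role (left, estradiol; right, tamoxifen). Low values gather among short genes such as CTSA (7.49 kb), with ARSG (193 kb) as a long exception.

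Genes that serve the lysosome but are not in the set were read in the same way. Of 27 further lysosomal hydrolases, membrane proteins and helpers, 21 were measured, with medians of 0.12 with estradiol and 0.14 with tamoxifen and with 13 above 0 and 8 below in each. At least 2-fold lower values were found for 0 of them with estradiol and for 1 (4.76%) with tamoxifen, against 1.68% and 1.79% of all genes. That gene was PLA2G15 (lysosomal phospholipase A2), at 0.21 on the vehicle, -0.78 on the estradiol and -0.85 on the tamoxifen array and with differences of -0.99 and -1.17. The highest of this list were SLC17A5 (the sialic acid exporter, 0.61) with estradiol and CTSV (cathepsin V, 0.54) with tamoxifen.

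The proton pump had medians of 0.028 and -0.12 over 15 measured subunits. ATP6V0D1 was at 0.13, -1.11 and -0.76 on the vehicle, estradiol and tamoxifen arrays, with differences of -1.23 and -0.995, while ATP6V1A, a catalytic subunit, was at 0.84 and 0.93. Subunits of the same pump therefore lay on both sides.

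Of 8 measured genes for enzyme sorting to the lysosome, M6PR (the cation-dependent mannose 6-phosphate receptor) was the 1 gene past 2-fold. Its 1 probe set read 0.017 on the vehicle, 1.06 on the estradiol and 1.72 on the tamoxifen array, 2.07-fold and 3.02-fold above vehicle. At least 2-fold higher values were thus found for 12.5% of this list in each comparison, against 1.62% and 1.65% of all genes. The receptor was above vehicle on both treated arrays, and higher with tamoxifen than with estradiol by 0.54. NAGPA, which uncovers the mannose 6-phosphate tag, was the lowest of the list at -0.97 and -0.70. The medians were -0.087 and 0.054.

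Autophagy genes had medians of -0.10 and 0.0029 over 17 genes, with ULK1, the initiating kinase, at -0.62 with estradiol and -1.01 with tamoxifen and no other gene past 2-fold. ULK1 was 5.88% of this list with tamoxifen, against 1.79% of all genes at least 2-fold lower. Genes of Rag, mTORC1 and GATOR1 signalling on the lysosomal surface had medians of -0.28 and -0.21 over 25 genes. Against 1.68% and 1.79% of all genes, 2 of them (8%) were at least 2-fold lower in each comparison. These were SESN2, a stress-induced inhibitor of mTORC1 (-2.30 and -2.15), and LAMTOR4, a Ragulator subunit (-1.01 and -1.14). Cystatins, inhibitors of the cysteine cathepsins, had medians of -0.27 and -0.47 over 9 genes, with CST3 (cystatin C) at 0.36, -1.11 and -0.49 on the vehicle, estradiol and tamoxifen arrays and differences of -1.30 and -0.97. In these lists, too, the comparisons share the vehicle array.

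**Figure D5:**
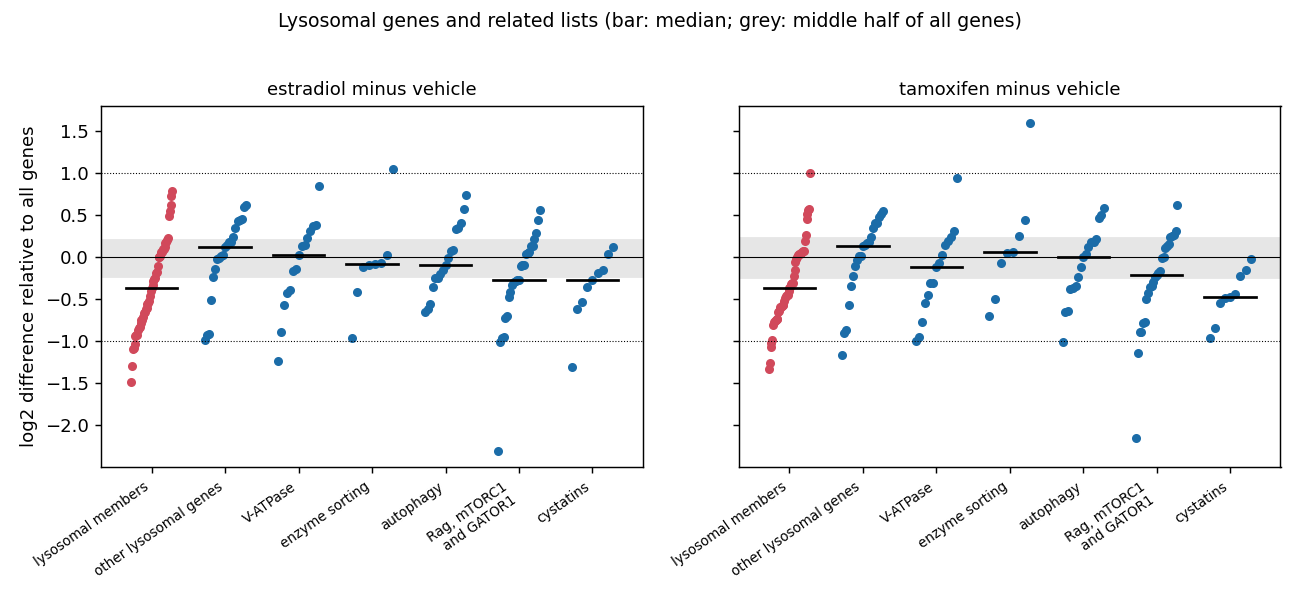
Log2 difference from vehicle, relative to all genes, for the 49 lysosomal members (red) and 6 related gene lists (blue); bars are medians, the grey band is the interquartile range of all genes and dotted lines mark 2-fold. The members have medians of -0.37 in both panels, and M6PR (1.05 and 1.60) is the highest point of the sorting list.

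Markers of macrophages, which are rich in lysosomes, and of fibroblasts were read on the same arrays. Of 11 macrophage markers 10 were measured, with medians of 0.017 and 0.083, a range of -0.45 (CD14) to 0.30 (LYZ) with estradiol and none past 2-fold. The 9 fibroblast markers had medians of -0.039 and 0.32, from -0.97 (COL1A1) to 0.84 (LUM) with estradiol, and none past 2-fold. The 9 luminal markers had medians of 0.00052 and -0.094, from -0.53 (MUC1) to 0.72 (CDH1) with estradiol, and none past 2-fold. Of all genes, 1.68% were at least 2-fold lower and 1.62% higher with estradiol, and 1.79% and 1.65% with tamoxifen. Levels of the markers were not kept in the values, so whether any marker was at background is unknown here. All arrays were of T47D cells, a cultured line, so these markers are not read as a measure of cell types present. In such bulk samples, fewer cells with a transcript and less RNA per cell cannot be told apart.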

How the data were processed

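RNA of T47D cells was measured on 3 arrays, 1 per group, grouped by the treatment in the labels. The deposited values are log2 expression made by the authors with RMA, per the submitters' processing notes, and carry both signs around 0, so that a centre per probe set, not recorded in the labels, had been subtracted. Log base 2 is taken from RMA. RMA compresses differences at low signal, and the centred values do not show which probe sets were near background. Gene symbols came from the array annotation; 41097 probe sets had 1 symbol, 1801 several and 11777 none, and those with several or none were left out. Differences between 2 arrays were taken per probe set, the median over probe sets was the value of a gene, and the median of all genes was subtracted. A gene was past the cutoff at a log2 difference of 1 (2-fold). No filter on level and no test was possible. The calculation was tested on simulated data. Gene lengths and promoter sequences are from RefSeq GRCh38.p14. The members and lists were chosen with earlier results of these data known. By rule, each member is given singly or within a range. Those past 2-fold, the MiT factors and the highest and lowest of each role are given by array. Of each related list the genes past 2-fold, or its highest and lowest gene, are named. Further genes named were chosen after their values were seen. Alternatives were the mean over probe sets, dropping the _s_at and _x_at probe sets (shared or cross-matching probes), values as deposited, genes with at least 2 probe sets, a 1.5-fold cutoff and, added after the data were seen, centring by gene length. Python 3.11.15, pandas 2.3.3, numpy 2.4.6 and matplotlib 3.10.9 were used.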

Additional observations from a re-analysis of the deposited data

Results flagged for a closer look

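Control probe sets, which no comparison used, differed between the arrays in both directions. Against vehicle, 18S ribosomal RNA (3 probe sets) had median differences of 1.86 with estradiol and 1.96 with tamoxifen. The 9 probe sets of the older design for the hybridisation spikes BioB, BioC, BioDn and CreX were lower on the tamoxifen than on the estradiol array by a median difference of -3.16 (from -4.23 to -1.86), and differed from vehicle by -3.23 (from -4.32 to -1.97), while the 9 probe sets of the newer design for the same spikes had median differences of 0.49 and 0.22. Their part in the lysosomal values was not tested.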

How the results depend on the processing

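The member medians kept their sign with estradiol (-0.38 to -0.21) and tamoxifen (-0.35 to -0.23) under each alternative run, and no called member reversed. With estradiol, 5 members were at least 2-fold lower, against 1.68% of all genes. The count was 2 among genes with at least 2 probe sets. At 1.5-fold it was 19, and 3 were higher, against 8.74% and 6.42% of all genes. With tamoxifen, 4 were lower, against 1.79% of all genes. The count was 2 as deposited, 2 after centring by gene length and 15 at 1.5-fold, where the share of all genes was 8.87%. Of all genes, 353 were at least 2-fold lower with tamoxifen in the main values and 217 as deposited. The count of higher members with tamoxifen, 0 in the main values, was 1 as deposited, 1 after centring by gene length and 1 at 1.5-fold, in each case CTSO. Without the _s_at and _x_at probe sets 38 members remained, with 5 and 4 at least 2-fold lower. The share of all genes was not calculated for this setting, for genes with at least 2 probe sets or after centring by gene length. Member counts under those settings can therefore not be set against all genes. Over all genes, 66.4% of those past 2-fold with tamoxifen were higher as deposited and 48.0% after centring, and 42.9% and 11.1% for tamoxifen minus estradiol. Leaving out a replicate was not possible with 1 array per group. No paired analysis was possible because each group has 1 array. Signal over background is unknown, so dim probe sets remain in every count.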
